A study of Mus musculus with 12 samples.

Results

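The genes described here are 2 neurotrophins, Bdnf and Ntf3, with the receptors that bind neurotrophins or their precursors, Ntrk2, Ntrk3, Sort1 and Sorcs2. They were found by Ensembl identifier in each mouse's table and are 6 of the 24590 genes listed in at least 1 mouse. All 6 were listed in all 12 mice. RNA was measured by poly(A) RNA sequencing of the hippocampus in male mice of 2 lines with a deletion in Shank2. Shank2 encodes a scaffold that holds receptors and signalling proteins together under excitatory synapses. There were 4 groups of 3 mice. They were knockouts lacking Shank2 exons 6 and 7, wild types of that line (together the exon 6-7 line), knockouts lacking Shank2 exon 7, and wild types of that line (together the exon 7 line). All groups share a mixed background of the C57BL/6J and C57BL/6N substrains, and no other allele or agent is given. The labels call the knockouts and wild types littermates, 8 to 15 weeks old for behavioural work, without the age of a single mouse or any statement on whether these mice were tested. The labels name no Cre driver or promoter that would limit a deletion to a cell type. Each mouse number occurs once, so p-values measure the spread between animals and their libraries.

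Neurotrophins are secreted growth factors that support the survival, growth and synaptic plasticity of neurons. Mature brain-derived neurotrophic factor (BDNF, from Bdnf) binds the tyrosine kinase receptor TrkB (from Ntrk2), and neurotrophin-3 (from Ntf3) binds TrkC (from Ntrk3) with the highest affinity. In the hippocampus, BDNF acting through TrkB is known for its part in long-term potentiation, and TrkB without the kinase domain is abundant in astrocytes. Precursor forms of neurotrophins bind sortilin (from Sort1) and SorCS2 (from Sorcs2), transmembrane proteins with a Vps10p domain, in complexes with the p75 receptor (from Ngfr). Sortilin also sorts proteins, BDNF among them, within the secretory pathway.

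Values are FPKM, a measure scaled to transcript length and library size, so levels of different genes can be set side by side, within the limit that the dependence on transcript length differed between the lines (below). They were scaled between libraries and are called scaled FPKM below. The files hold no read counts, so the depth of a library is unknown and no counting error is attached to a value. Libraries listed 19515 to 20334 genes, and their correlation across genes was 0.946 to 0.980 within a line and 0.833 to 0.899 between lines. Mitochondrial transcripts took a larger share of summed FPKM in exon 7 libraries (10.3 to 14.3%) than in exon 6-7 libraries (6.22 to 7.39%). Libraries also fell into 2 sets within each line. In 4 libraries (set A), 1 knockout and 1 wild type of each line, the gene ENSMUSG00000095746 was not listed, while it stood at 217.7 to 434.8 FPKM, before scaling, in the other 8 (set B). What the sets are is not given in the labels. Shank2 itself had 6.22, 7.02 and 6.15 scaled FPKM in exon 6-7 knockouts, against 14.4, 13.8 and 14.9 in their wild types (log2 fold change -1.04; adjusted p = 0.00972, limma). It had 33.2, 43.5 and 44.6 scaled FPKM in exon 7 knockouts, against 36.0, 42.4 and 44.1 in theirs. The first pair of groups does not overlap and the second does, but a value for the whole gene does not show whether 1 exon is missing, so it checks the labels in the exon 6-7 line only. The 6 markers listed for hippocampal excitatory neurons summed to 2361 to 2497 scaled FPKM in exon 6-7 knockouts, 2563 to 2669 in their wild types, 2048 to 2473 in exon 7 knockouts and 1925 to 2309 in theirs, with no marker at 0 in any group. No other brain region was sequenced, so these sums cannot tell hippocampus from neighbouring tissue and do not check the tissue label. Markers of neighbouring tissue were also detected. Over both genotypes of the exon 7 and the exon 6-7 line, thalamic markers summed to 32.6 to 40.1 and 20.2 to 26.0 scaled FPKM, cortical markers to 59.7 to 68.9 and 63.5 to 79.6, and striatal markers to 26.3 to 39.5 and 42.4 to 84.8.

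Choroid plexus and oligodendrocyte markers differed between mice. The 10 choroid plexus markers summed to 6765 to 8443 scaled FPKM in exon 6-7 knockouts, against 8644, 3990 and 43.1 in their wild types, the lowest sum coming from the wild type that had the most Sorcs2 of its line. Exon 7 knockouts had sums of 1691 to 2327 and their wild types 1448 to 1756. The 10 oligodendrocyte markers summed to 4978 to 5108 in exon 6-7 knockouts and 5699 to 7068 in their wild types, and to 4830 to 5155 in exon 7 knockouts and 5361 to 5527 in theirs. All 10 oligodendrocyte markers had a fold change below 0 on the log2 scale in both knockout comparisons and 0 passed the test. Astrocyte markers summed to 1184 to 1433 in exon 6-7 knockouts and 1239 to 1624 in their wild types, and to 1348 to 1410 in exon 7 knockouts and 1309 to 1398 in theirs. No marker of these lists was at 0 in a whole group. Their part in the values of the neurotrophin genes was not tested, and in whole hippocampus fewer cells of a type and less RNA per cell cannot be told apart.

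Positions are given in mm10 (GRCm38). Bdnf (ENSMUSG00000048482) lies at chr2:109674700-109727007 on the plus strand, with a longest annotated transcript of 4266 bases. Ntf3 (ENSMUSG00000049107) lies at chr6:126101412-126166910 on the minus strand, and its longest transcript, of 1483 bases, is the shortest of the 6. Ntrk2 (ENSMUSG00000055254) lies at chr13:58806569-59133970 on the plus strand, with 8744 bases, and Ntrk3 (ENSMUSG00000059146) at chr7:78175959-78738012 on the minus strand, with 19703 bases. Ntrk3 is on the chromosome that also carries Shank2, which starts at 144001928 on the plus strand. Sort1 (ENSMUSG00000068747) lies at chr3:108284082-108361511 on the plus strand, with 6836 bases, and Sorcs2 (ENSMUSG00000029093) at chr5:36017180-36398139 on the minus strand, with 5707 bases. No source used here says whether reads were counted by strand, so reads of antisense genes could not be told apart from these. Of the genes annotated within them, Gm9885, antisense to Ntrk3, was listed at 1.28 to 4.54 scaled FPKM, Gm12523, antisense to Sort1, at 0 to 0.155, and Psapl1, on the opposite strand within Sorcs2, at 0 to 0.0305.

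Sort1 and Ntrk2 were the most abundant of the 6 mRNAs in every group, with Ntrk3 after them. In the exon 6-7 line Sort1 averaged 60.5 ± 2.03 scaled FPKM in knockouts and 57.7 ± 2.12 in wild types (SD, n = 3 each), while Ntrk2 averaged 59.6 ± 0.254 in knockouts and 59.9 ± 5.47 in wild types. Their ranges overlap there in scaled FPKM. With trends over length and GC content removed from each library, Ntrk2 lay above Sort1 in exon 6-7 knockouts, at 6.37 to 6.51 against 6.21 to 6.32 on the log2 scale, so the order of these 2 depends on that step. Sort1 in the exon 7 line averaged 125 ± 2.65 scaled FPKM in knockouts and 128 ± 6.31 in wild types, above Ntrk2 at 118 ± 1.99 in knockouts and 116 ± 2.59 in wild types, in all 3 mice of each group. Ntrk3 came next and was below both and above the remaining 3 genes in every mouse. Bdnf and Sorcs2 followed. Their ranges overlapped in every group but the exon 6-7 knockouts, where Bdnf was the higher in all 3 mice. Ntf3 had the lowest mean of the 6 in all 4 groups. Its range overlapped that of Sorcs2 in the exon 6-7 line, while in the exon 7 line it lay below all 5 others.

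**Figure D1:**
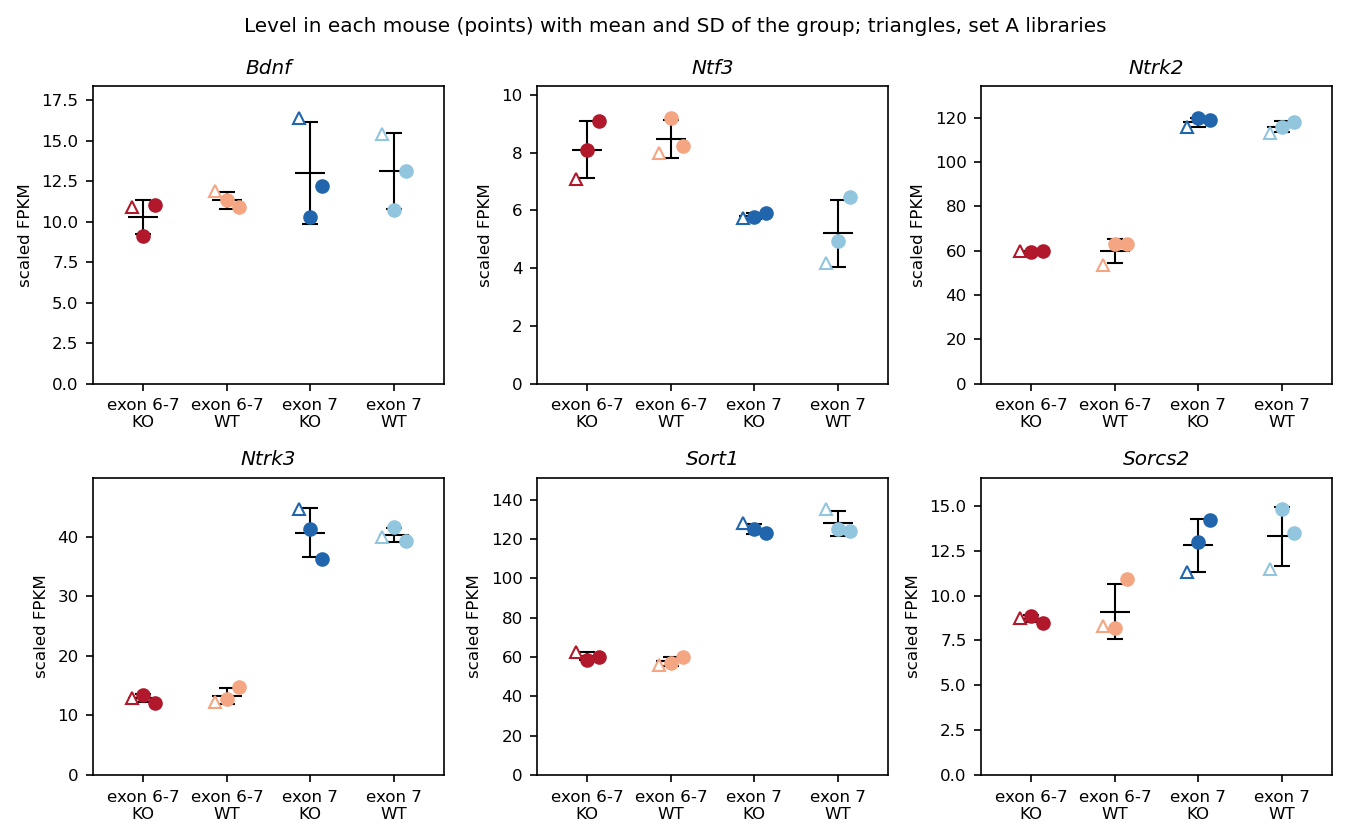
Level of each of the 6 genes (vertical axes, scaled FPKM, starting at 0) in each mouse of the 4 groups; points are mice, open triangles are the 4 libraries of set A, long horizontal bars are group means and short bars the SD over 3 mice. Knockouts and wild types of a line overlap for all 6 genes, while Ntrk2, Ntrk3 and Sort1 stand about on 2 levels, one per line.

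Neither Shank2 deletion was accompanied by a change in either neurotrophin or in any of the 4 receptors that passed the test. In exon 6-7 knockouts against their wild types 0 of the 6 genes had an adjusted p under 0.05 in limma, the linear model fitted across all 14322 genes that averaged 1 FPKM or more, of which 3 (0.0209%) did. In exon 7 knockouts the count was again 0 of 6, with 0 genes of all tested (0%). At an unadjusted p under 0.05 the counts were 0 of 6 in both lines, against 586 of all genes for the exon 6-7 deletion and 501 for the exon 7 deletion. With a term for the library set (sets A and B above) in each line, those counts over all genes were 1501 and 1152, and 0 of the 6 genes had an unadjusted p under 0.05 in either line. Knockout and wild-type mice overlapped for all 6 genes in both lines, while the groups did not overlap for 11.3% of all genes tested for the exon 6-7 deletion and 6.99% for the exon 7 deletion. Adjusted p-values of the 6 genes were 1 in both comparisons. With 3 mice against 3, an exact permutation test cannot go below 0.1.

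Of the ligands, Bdnf had 10.9, 9.11 and 11.0 scaled FPKM in exon 6-7 knockouts, against 11.9, 11.3 and 10.9 in their wild types. The knockouts held the lowest value of the line and a highest value inside the wild-type range. The log2 fold change was -0.13 with a 95% interval of -0.48 to 0.22 (adjusted p = 1, limma; exact permutation p = 0.3, two-sided). Exon 7 knockouts had 16.4, 10.3 and 12.2 scaled FPKM of Bdnf, against 15.4, 10.7 and 13.1 in wild types, with 1 high mouse in each group. The log2 fold change there was -0.02, with an interval of -0.37 to 0.33. These are the widest intervals of the 6 genes. In the exon 7 line the interval reaches from 0.773 to 1.26 as a ratio to wild types, in scaled FPKM + 1. The fit takes 1 spread from all 12 libraries. On the log2 scale the SD of Bdnf was 0.32 in exon 7 knockouts and 0.24 in their wild types. It was 0.14 in exon 6-7 knockouts and 0.06 in their wild types.

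Ntf3, the other ligand, had 7.10, 8.10 and 9.09 scaled FPKM in exon 6-7 knockouts, against 7.98, 9.20 and 8.21 in their wild types. The values interleave, and the log2 fold change was -0.06 with an interval of -0.35 to 0.23. Exon 7 knockouts had 5.74, 5.77 and 5.92 scaled FPKM of Ntf3, against 4.18, 4.93 and 6.47 in wild types. The knockouts sat close together inside the spread of the wild types, and the log2 fold change was 0.15 with an interval of -0.14 to 0.44 (adjusted p = 1, limma; exact permutation p = 0.4). This was the largest point estimate of the 6 genes in either knockout comparison.

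Ntrk2, the gene of the BDNF receptor TrkB, had 59.8, 59.3 and 59.7 scaled FPKM in exon 6-7 knockouts, against 53.5, 63.0 and 63.1 in their wild types. One wild type lay below all knockouts and the other two above them. The log2 fold change was 0.00 with an interval of -0.17 to 0.16. Ntrk2 in the exon 7 line had 116, 120 and 119 scaled FPKM in knockouts, against 113, 116 and 118 in wild types, and the log2 fold change was 0.03 with an interval of -0.13 to 0.20. Ntrk3, the gene of the neurotrophin-3 receptor TrkC, had 13.0, 13.4 and 12.1 scaled FPKM in exon 6-7 knockouts, against 12.3, 12.8 and 14.8 in their wild types. Here too the groups interleave, with a log2 fold change of -0.04 (interval -0.25 to 0.17). Ntrk3 in the exon 7 line had 44.6, 41.3 and 36.3 scaled FPKM in knockouts, against 40.0, 41.7 and 39.3 in wild types, so that knockouts held both the highest and the lowest value. The log2 fold change was 0.01, with an interval of -0.20 to 0.22.

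Sort1, the gene of sortilin, had 62.7, 58.7 and 60.1 scaled FPKM in exon 6-7 knockouts, against 56.1, 56.8 and 60.1 in their wild types. The groups overlap from 58.7 to 60.1, and the log2 fold change of 0.07 had an interval of -0.08 to 0.22 (adjusted p = 1, limma; exact permutation p = 0.3). Sort1 in the exon 7 line had 128, 125 and 123 scaled FPKM in knockouts, against 135, 125 and 124 in wild types, a log2 fold change of -0.03 with an interval of -0.18 to 0.12. Sorcs2 had 8.74, 8.88 and 8.49 scaled FPKM in exon 6-7 knockouts, against 8.29, 8.17 and 10.9 in their wild types. A single wild type stood above the other 5 mice, and the log2 fold change was -0.05 (interval -0.32 to 0.23). Exon 7 knockouts had 11.3, 13.0 and 14.2 scaled FPKM of Sorcs2, against 11.5, 14.8 and 13.5 in wild types, a log2 fold change of -0.04 with an interval of -0.32 to 0.23.

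No gene of the 6 passed the test of whether the knockout effect differed between the lines. The exon 7 effect minus the exon 6-7 effect was 0.21 on the log2 scale for Ntf3 (interval -0.19 to 0.62), 0.11 for Bdnf and -0.10 for Sort1, and between 0.00 and 0.05 for Ntrk2, Ntrk3 and Sorcs2. For Sort1 the interval was -0.31 to 0.11 and the exact permutation p over both lines was 0.12. In limma 0 of the 6 had an unadjusted p under 0.05, and 0.0140% of all genes passed after adjustment. The mean knockout effect over both lines lay between -0.07 (Bdnf, interval -0.32 to 0.17) and 0.05 (Ntf3, interval -0.16 to 0.25), with 0 of 6 genes past the threshold and 0.0209% of all genes. For Ntrk2 and Sort1, the genes with the narrowest intervals, mean effects were both 0.02, and that of Sort1 had an interval of -0.09 to 0.12. A p that misses the threshold does not show that levels were alike, and the intervals give the sizes that the 12 mice leave possible.

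**Figure D2:**
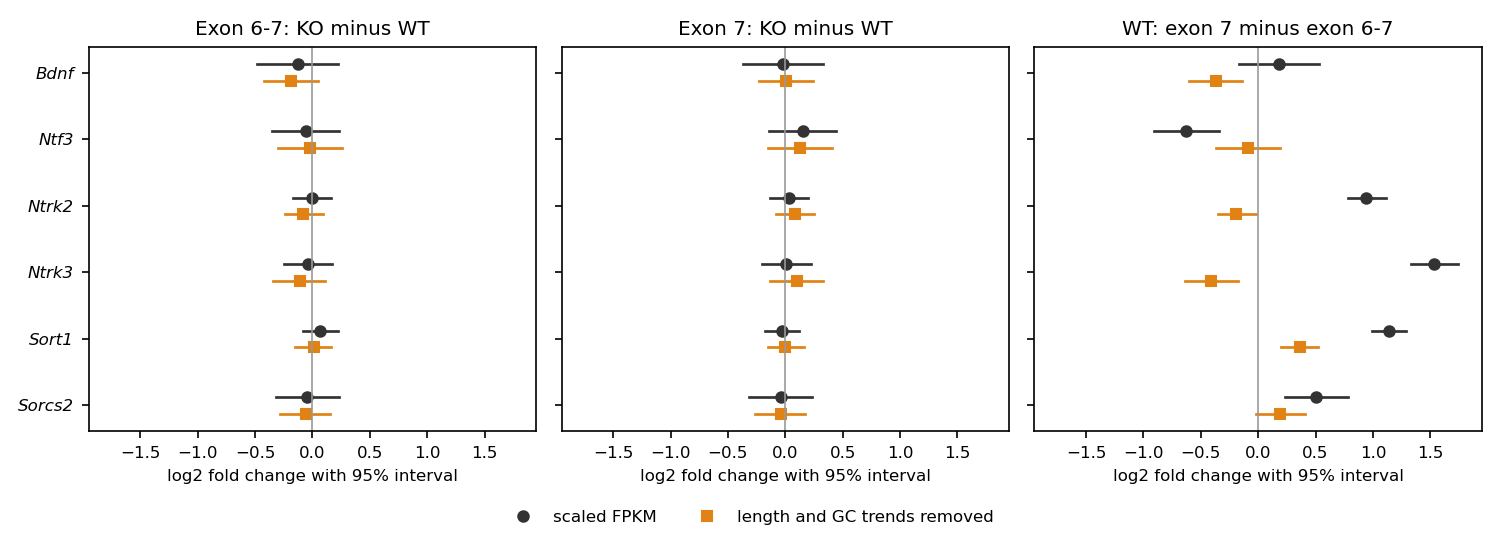
Log2 fold change (horizontal axes) of each gene in the 2 knockout comparisons and between the wild types of the lines; points are fitted values and lines their 95% intervals, in black from scaled FPKM and in orange with the trends over transcript length and GC content removed. The knockout intervals all include 0 on both scales, while between the wild types Ntrk2 is 0.94 in black and -0.19 in orange.

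Bdnf separated the library sets in the exon 7 line more than it separated genotypes. Its 2 set A libraries, 1 knockout and 1 wild type, had 16.4 and 15.4 scaled FPKM, and the 4 set B libraries 10.3 to 13.1, a difference of 0.43 on the log2 scale. In the exon 6-7 line the ranges of the sets overlapped, at 10.9 to 11.9 in set A and 9.11 to 11.3 in set B, a difference of 0.10. Sorcs2 showed the other sign in the exon 7 line, with 11.3 and 11.5 scaled FPKM in set A and 13.0 to 14.8 in set B, a difference of -0.26. Sort1 was higher in set A in the exon 7 line, at 128 and 135 against 123 to 125 scaled FPKM in set B, a difference of 0.08. Ntf3 was lower in set A in the exon 6-7 line, at 7.10 to 7.98 against 8.10 to 9.20 scaled FPKM in set B, and overlapped in the exon 7 line. How many of all genes separate the sets in this way was not counted. These separations are therefore descriptions and are not shown to be particular to the neurotrophin genes. Within sets the knockout effect on Bdnf in the exon 7 line was 0.09 in set A (1 mouse against 1) and -0.08 in set B (2 against 2), and in the exon 6-7 line -0.11 and -0.14. The exon 7 effect on Ntf3 was 0.38 in set A and 0.04 in set B, so that its estimate comes mostly from 1 pair of libraries. For the 4 receptor genes the effects within sets lay between -0.11 and 0.16 in the exon 6-7 line and between -0.08 and 0.15 in the exon 7 line.

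Bdnf is transcribed from several promoters, and 1 of them is shown because it holds the core letters of the element that CREB, a transcription factor activated by synaptic calcium signals, is known to bind. RefSeq windows from 250 bases before to 50 bases after a start (GRCm38.p6) were given for 3 of the 6 genes, with 7 starts for Bdnf, 2 for Ntf3 and 1 for Ntrk2. Of these 10 windows only that of 1 Bdnf start, number 3 in order along the chromosome, at chr2:109692186-109692485 on the plus strand, held the letters TGACG on either strand. Capitals mark the match, which reads CGTCA on the gene's strand and begins at base 216 counted from 1 at the 5′ end of the window.
Bdnf, start 3: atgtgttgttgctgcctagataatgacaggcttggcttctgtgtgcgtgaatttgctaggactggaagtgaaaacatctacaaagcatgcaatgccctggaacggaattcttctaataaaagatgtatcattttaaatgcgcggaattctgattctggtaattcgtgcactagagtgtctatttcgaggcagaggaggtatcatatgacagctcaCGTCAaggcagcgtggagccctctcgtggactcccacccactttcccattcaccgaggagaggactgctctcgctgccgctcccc
The same letters occur in 20.8% of 32851 RefSeq windows of this length, and the longer palindrome TGACGTCA, which contains them, in 1.79% of all windows and in none of the 10. A match of letters is a description and not a bound site. The FPKM values are sums over a gene, so they do not say which Bdnf start was used.

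Between the wild types of the lines, 5 of the 6 genes differed, as did 66.4% of all genes tested. Ntrk2, Ntrk3, Sort1 and Sorcs2 were higher in exon 7 wild types and Ntf3 was lower, where 33.7% of all genes were higher and 32.7% lower. The groups did not overlap for the same 5 genes, against 69.7% of all genes. The largest difference was in Ntrk3. It had 40.0, 41.7 and 39.3 scaled FPKM in exon 7 wild types, against 12.3, 12.8 and 14.8 in exon 6-7 wild types. The fitted ratio was 2.90 (log2 fold change 1.53, interval 1.33 to 1.74; adjusted p = 1.63e-07, limma). This ratio and those that follow are of scaled FPKM + 1, the fitted scale, and understate ratios of the levels themselves. Sort1 was 2.20-fold and Ntrk2 1.92-fold higher, with log2 fold changes of 1.14 (interval 0.99 to 1.29) and 0.94 (interval 0.78 to 1.11). Sorcs2 was 1.41-fold higher (log2 fold change 0.50, interval 0.23 to 0.78; adjusted p = 0.00413, limma). Ntf3 had 4.18, 4.93 and 6.47 scaled FPKM in exon 7 wild types, against 7.98, 9.20 and 8.21 in exon 6-7 wild types, a ratio of 0.648 (log2 fold change -0.63, interval -0.91 to -0.34; adjusted p = 0.00129, limma). Bdnf overlapped and did not pass, with a log2 fold change of 0.18 (interval -0.17 to 0.53; adjusted p = 0.349, limma). Within set A (1 mouse against 1) and set B (2 against 2) the log2 differences between the wild types were 1.63 and 1.49 for Ntrk3, 1.26 and 1.08 for Sort1, 1.06 and 0.88 for Ntrk2, 0.43 and 0.54 for Sorcs2, -0.79 and -0.54 for Ntf3 and 0.35 and 0.09 for Bdnf.

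These differences between the lines followed transcript length across the whole data. Over 14163 genes with an annotated length, Spearman's rho between length and the log2 fold change of exon 7 over exon 6-7 wild types was 0.66, and with GC content -0.41, both across genes, which are not independent replicates. When genes were cut by length into 5 classes of about equal number, the longest class, 5210 to 123179 bases, had a median log2 fold change of 0.90, with quartiles of 0.46 and 1.31, and 84.3% of genes passed. Ntrk2, Ntrk3, Sort1 and Sorcs2 all belong to that class, and of them only Ntrk3 lay above the upper quartile. In the shortest class, 102 to 1743 bases, the median was -0.81 and 75.2% passed, and Ntf3 belongs to it. Bdnf belongs to the next to longest class, 3811 to 5208 bases, whose median was 0.32. Within the lines the same correlation of the knockout effect with length was 0.35 for the exon 6-7 deletion and -0.18 for the exon 7 deletion.

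**Figure D3:**
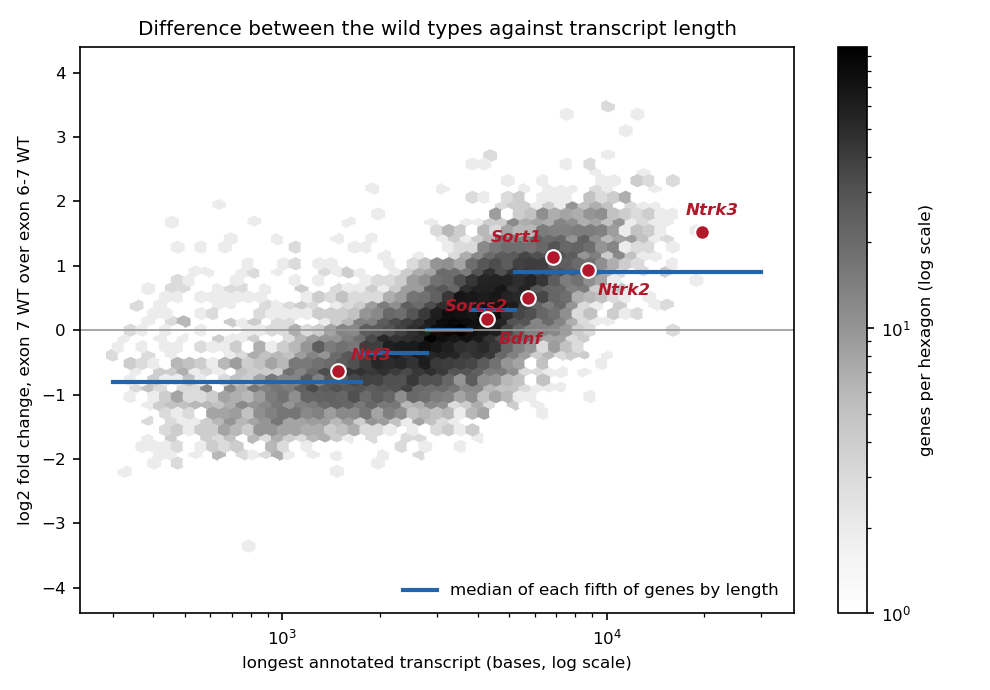
Log2 fold change of exon 7 over exon 6-7 wild types (vertical axis) against the longest annotated transcript (horizontal axis, bases, log scale); grey hexagons count genes on a log scale, blue lines are medians of the 5 length classes (first and last drawn to the edge of the axis) and red points the 6 genes, with 13969 genes drawn and 194 outside the axes. Ntf3 sits among short genes below 0, and Ntrk2, Ntrk3, Sort1 and Sorcs2 among long genes above 0.

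With the trends over length and GC content removed from each library, 3 of the 6 genes passed between the wild types, 1 higher and 2 lower, where 47.5% of all genes did, 23.0% higher and 24.4% lower. Sort1 was still higher in exon 7 wild types (log2 fold change 0.36, interval 0.20 to 0.52; adjusted p = 0.00155, limma). Ntrk3 turned round and was lower, with a log2 fold change of -0.41 (interval -0.64 to -0.18; adjusted p = 0.0068, limma). Bdnf was also lower, at -0.37 (interval -0.60 to -0.14; adjusted p = 0.0142, limma), with no overlap between the groups. Ntrk2 was at -0.19 (interval -0.35 to -0.02; adjusted p = 0.0594, limma), also with no overlap, where 54.9% of all genes did not overlap. Ntf3 was at -0.09 (adjusted p = 0.592) and Sorcs2 at 0.19 (adjusted p = 0.127), and none of these 3 passed. Thus only Sort1 passed in the same direction on both scales. For Ntrk3 the removed trend is read at the far end of the length axis, where 13 of the 14163 genes, Ntrk3 included, have a transcript of its length or more. Lengths came from GENCODE M21 and not from the annotation the authors used, and the line cannot be told apart from anything else that differed between the libraries of the 2 lines.

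In the knockout comparisons the removal changed no call. All 6 genes had an adjusted p of 1 in both lines. Bdnf in exon 6-7 knockouts was at -0.19 (interval -0.42 to 0.05) on that scale, with all 3 knockouts below all 3 wild types, and Ntrk2 in exon 7 knockouts at 0.08 (interval -0.08 to 0.25), with all 3 knockouts above. Without the trends 8.93% of all genes did not overlap in the exon 6-7 line and 7.63% in the comparison of exon 7 knockouts. On the scale of scaled FPKM the groups overlapped in both cases. Beside the comparison of the wild types stand differences in cell type markers. Of the 10 choroid plexus markers 4 were higher and 0 lower in exon 7 wild types, of the 10 oligodendrocyte markers 1 was higher and 7 lower, and of the 10 astrocyte markers 5 were higher and 4 lower. Dentate granule cell markers were higher in 4 and lower in 1 of 7, CA1 markers lower in 3 of 3, CA2 markers higher in 1 and lower in 2 of 4, and CA3 markers higher in 1 and lower in 1 of 3. Interneuron markers were higher in 2 and lower in 5 of 8, excitatory neuron markers higher in 3 and lower in 1 of 6, microglial markers higher in 1 and lower in 3 of 6, and endothelial markers higher in 3 and lower in 1 of 4. Thalamic markers were higher in 4 of 4, cortical markers higher in 2 and lower in 1 of 4, and of the 2 striatal markers tested 1 was higher and 1 lower. These shares stand beside the 66.4% of all genes that passed. Their part in the line difference of the neurotrophin genes was not tested.

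Of the other ligands and receptors of the family, Ntf5, the gene of neurotrophin-4, lay at 0.11 to 0.40 scaled FPKM over the 12 mice, and Ngfr, the gene of the p75 receptor with which sortilin and SorCS2 form complexes, at 0.342 to 1.01. Both fell under the filter of a mean of 1 FPKM and were not tested.

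The 3 other Vps10p domain receptors, relatives of Sort1 and Sorcs2, were all above 0 in exon 6-7 knockouts and below 0 in exon 7 knockouts on the log2 scale, but none passed in either line or in the test of the difference (adjusted p = 1 throughout, limma). Sorl1, the gene of SorLA, had 19.3, 18.5 and 16.7 scaled FPKM in exon 6-7 knockouts, against 18.4, 16.2 and 17.7 in their wild types, and 56.8, 47.2 and 46.5 in exon 7 knockouts, against 56.3, 53.4 and 56.3 in theirs. Sorcs3 had 6.28, 5.54 and 5.72 scaled FPKM in exon 6-7 knockouts, against 5.38, 5.78 and 5.38 in their wild types. Sorcs3 in the exon 7 line had 9.30, 8.83 and 10.2 in knockouts, against 11.0, 10.3 and 10.5 in wild types. Sorcs1 had 1.98, 2.04 and 1.89 scaled FPKM in exon 6-7 knockouts, against 1.66, 1.63 and 1.93 in their wild types, and 4.22, 4.42 and 4.52 in exon 7 knockouts, against 4.81, 4.81 and 4.79 in theirs. In the exon 7 line the groups of Sorcs1 and Sorcs3 did not overlap, with knockouts below, at log2 fold changes of -0.11 (SE 0.0894) and -0.16 (SE 0.0837), and the adjusted p was 1 for both in limma. Over all genes tested, 6.99% did not overlap in that comparison. On the scale without length and GC trends both overlapped, and the exon 6-7 effects were -0.03 for Sorl1, 0.04 for Sorcs1 and 0.02 for Sorcs3, so that the sign of Sorl1 turned. All 3 were higher in exon 7 than in exon 6-7 wild types, by 1.61 (Sorl1), 1.08 (Sorcs1) and 0.84 (Sorcs3) on the log2 scale. Without the trends these were 0.37 (adjusted p = 0.00952), 0.10 (adjusted p = 0.382) and 0.24 (adjusted p = 0.0296).

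Over 5 lists of pathway genes outside the 6, with 44 genes in the files and 40 tested, 0 passed in either knockout comparison. The median log2 fold change was 0.04 in the exon 6-7 line, with 24 of 40 above 0, and -0.03 in the exon 7 line, with 15 of 40 above 0, beside medians over all genes of 0.00 and -0.01. In the list of processing and sorting, Cadps2, whose product promotes the release of BDNF from dense-core vesicles, had 17.2 to 20.4 scaled FPKM in exon 6-7 knockouts and 21.0 to 21.7 in their wild types, without overlap (log2 fold change -0.16, SE 0.0865; adjusted p = 1, limma). It was at 0.00 in the exon 7 line. Pcsk6, a proprotein convertase, was at -0.27 in the exon 6-7 line. Of the 7 tested genes of that list 4 did not overlap in the exon 6-7 line, beside 11.3% of all genes. Knockouts were above wild types in 2 of these and below in 2. In the exon 7 line the count was 0 of 7, beside 6.99% of all genes. Cpe, the carboxypeptidase that trims peptides in secretory granules, had 1252 to 1331 scaled FPKM in exon 7 knockouts and 1176 to 1277 in wild types (log2 fold change 0.10). Its levels lay the other way in the exon 6-7 line, at 1678 to 1817 in knockouts and 1873 to 1971 in wild types, without overlap (log2 fold change -0.11, SE 0.0690; adjusted p = 1, limma). Pcsk5, another convertase, had 2.63 to 2.89 in exon 6-7 knockouts and 2.30 to 2.35 in their wild types, without overlap (log2 fold change 0.16, SE 0.103; adjusted p = 1, limma), and was at -0.06 in the exon 7 line. Furin, the convertase of the secretory pathway, was at 0.13 (SE 0.102; adjusted p = 1, limma) in the exon 6-7 line, with knockouts above wild types. With length and GC trends removed Cpe overlapped in that line, at -0.08, while Cadps2, Pcsk5 and Furin still did not. On that scale 8.93% of all genes did not overlap there.

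Among 21 adaptors and partners of Trk receptors and p75, 12 were above 0 in exon 6-7 knockouts, 8 were in exon 7 knockouts and 0 passed. Frs2, which docks on activated Trk receptors, had 4.86 to 6.13 scaled FPKM in exon 6-7 knockouts and 4.22 to 5.05 in their wild types, a log2 fold change of 0.20. Bex3, which binds the p75 receptor, had 407 to 460 in knockouts and 460 to 510 in wild types of that line (log2 fold change -0.17). Grb2, the adaptor that links receptors to Ras, had 57.3 to 69.1 scaled FPKM in exon 7 knockouts and 66.4 to 72.5 in wild types (log2 fold change -0.14). Rtn4r, the Nogo receptor that can use p75 as its partner, had 36.8 to 43.6 in knockouts and 35.7 to 37.7 in wild types of the exon 7 line (log2 fold change 0.13). The groups overlapped for these 4. Of all 21, chosen after their values were seen, Ptpn11 did not overlap in the exon 6-7 line, with knockouts above (log2 fold change 0.07), and Kidins220 did not in the exon 7 line, with knockouts below (log2 fold change -0.12), and the adjusted p was 1 for both in limma. That is 1 of 21 in each line, beside 11.3% and 6.99% of all genes. With length and GC trends removed both overlapped, while Shc3 did not in the exon 6-7 line, with knockouts above.

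Of 8 transcription factors that act on Bdnf, 7 were above 0 in exon 6-7 knockouts, 2 were in exon 7 knockouts and none passed. Carf, a calcium response factor of Bdnf, had 1.10 to 1.96 in exon 6-7 knockouts and 0.868 to 1.64 in their wild types (log2 fold change 0.22), and 5.24 to 7.13 in exon 7 knockouts and 6.57 to 8.10 in theirs (log2 fold change -0.18). Mef2c, an activity-regulated factor, had 28.0 to 39.2 scaled FPKM in exon 7 knockouts and 31.5 to 44.4 in wild types (log2 fold change -0.14).

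Between the wild types 23 of the 40 pathway genes were higher in the exon 7 line and 6 lower, with a median log2 fold change of 0.39. With length and GC trends removed 16 were higher and 3 lower, with a median of 0.17, and 13 of the 40 changed sign. Among the adaptors 12 of 21 were higher and 4 lower. The gene with the largest difference of all lists was Shc3, an adaptor of Trk receptors in neurons, at 2.26 on the log2 scale and 2.49 with the trends removed (adjusted p = 1.01e-06, limma), named after its value was seen. Here too the line cannot be told apart from other differences between the libraries of the 2 lines.

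**Figure D4:**
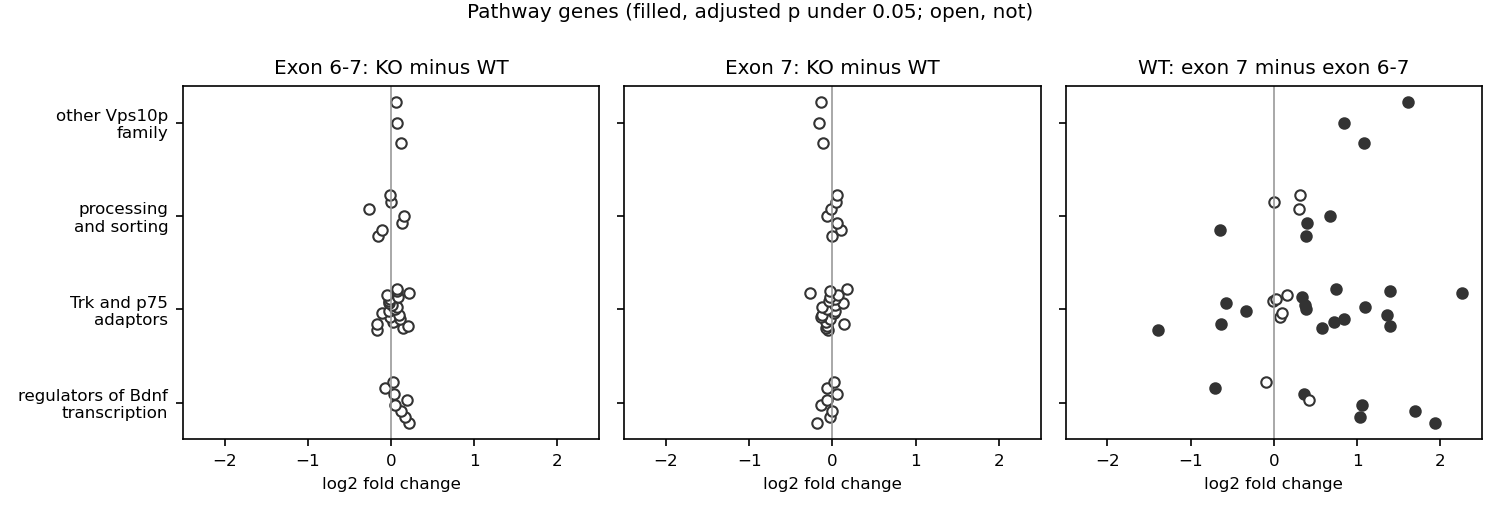
Log2 fold change (horizontal axes) of the pathway genes tested, in 4 lists, in the 2 knockout comparisons and between the wild types; filled points passed an adjusted p of 0.05 in limma. No point is filled in the knockout panels, while between the wild types 29 are.

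Across the 12 libraries, after the mean of each line was subtracted, pairs of the 6 genes were compared. Pearson's r between pairs of them ran from -0.67 (Ntf3 and Sort1) to 0.41 (Ntrk2 and Sorcs2), with -0.60 for Bdnf and Sorcs2. The genes most like each, out of 12754, were Ptrhd1, Snx5 and Maip1 for Bdnf (r of 0.933, 0.929 and 0.925) and Otulin and Commd1 for Ntf3 (0.961 and 0.906). They were Srcap, Snhg18 and D16Ertd472e for Ntrk2 (0.911, 0.904 and 0.889) and Hapln1, Zmat1 and Gmds for Ntrk3 (0.835, 0.832 and 0.800). They were Pik3r3, Ndufaf4 and Trim37 for Sort1 (0.936, 0.926 and 0.924) and Mtmr7, Igsf11 and Aff3 for Sorcs2 (0.954, 0.926 and 0.918). These are descriptions, since the libraries share their sets and the highest of so many values is high by selection.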

How the data were processed

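Poly(A) RNA of the hippocampus of 12 mice was sequenced from TruSeq libraries, per the labels' protocols. For each mouse the authors deposited FPKM values by Ensembl gene (release 74), per the file headers. Tools named in the submitters' processing notes are Cufflinks, GSNAP and CASAVA, with the build mm10. No source used here states how reads were counted or whether strand was used. Genes not listed for a mouse were set to 0.

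Libraries were scaled by median of ratios on 12511 genes that reached 1 FPKM in every library (factors 0.9187 to 1.07). The 14322 genes averaging 1 FPKM or more were tested on log2(scaled FPKM + 1), which understates fold changes of low genes, with limma 3.58.1 (limma-trend, R 4.3.3), 4 group means and 1 spread (residual degrees of freedom 8, prior 3.36). Two-sided p-values were adjusted by Benjamini-Hochberg over all genes tested, threshold 0.05. Exact permutation tests went over 20 relabellings in 1 line and 400 in both. Small RNAs were kept. GENCODE M21, of the same build, gave positions, lengths and GC content, and RefSeq the promoter windows. Trends over length and GC content were removed from each library by loess (span 0.3). Relative depth within a line, estimated from low values, was 0.74 to 1.20, and whole reads could not be recovered. At most 0.00546% of values were equal between 2 libraries.

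The members, lists, comparisons and the rule for named genes were chosen with earlier results of these data known. The rule named the 6 genes, Shank2, 7 relatives, from each other list the 2 genes with the smallest unadjusted p in each knockout comparison, and the 3 genes most like each member. A few genes named by it are left out here. Shc3, Furin, Ptpn11, Kidins220 and the values of Cadps2, Pcsk5 and Cpe in the other line were added after they were seen. Alternatives were other pseudocounts, filters and scalings, each line alone, library sets, trend removal and each mouse left out. Cell type markers came from textbook knowledge. Tables and plots used Python 3.11.15, pandas 2.3.3, scipy 1.17.1 and matplotlib 3.10.9.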

Additional observations from a re-analysis of the deposited data

How the results depend on the processing

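None of the 6 genes passed under any of 516 alternative values of the knockout comparisons, their mean and their difference, where the lowest adjusted p was 0.61 in limma. The counts over all genes moved. In exon 6-7 knockouts 3 genes passed, against 5 with each line alone, 6 with no filter and 5 in the 8 libraries of set B alone, an alternative added after seeing the data, and 2 to 8 with 1 mouse left out. In exon 7 knockouts 0 passed, against 1 with no filter, 1 with a pseudocount of 0.1, 4 in set B alone and 0 to 4 with 1 mouse left out. For the difference of the effects 2 passed, against 1 with a mean of at least 5 FPKM, 4 with a term for the library set, 7 in set B alone and 2 to 5 with 1 mouse left out. For the mean effect 3 passed, against 6 with no filter, 6 in set B alone and 2 to 7 with 1 mouse left out.

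Small effects changed sign. On the log2 scale, Ntrk2 in exon 6-7 knockouts was 0.00 from FPKM as deposited and 0.06 after quantile normalization, and its difference between lines 0.00 after the latter. With length and GC trends removed, Bdnf and Sort1 in exon 7 knockouts were 0.01 and 0.00. In set B alone, Ntrk3 in exon 7 knockouts was -0.06 and the mean effect on Ntrk2 -0.03. With 1 mouse left out, exon 6-7 effects ran from -0.14 to 0.02 for Ntf3, -0.08 to 0.04 for Ntrk2, -0.10 to 0.03 for Ntrk3 and -0.11 to 0.07 for Sorcs2. Exon 7 effects ran from -0.19 to 0.12 for Bdnf, -0.06 to 0.09 for Ntrk3, -0.05 to 0.01 for Sort1 and -0.14 to 0.04 for Sorcs2. Differences ran from -0.06 to 0.25 for Bdnf, -0.01 to 0.11 for Ntrk2, -0.02 to 0.13 for Ntrk3 and -0.12 to 0.09 for Sorcs2, and mean effects from -0.01 to 0.12 for Ntf3, -0.02 to 0.03 for Ntrk2, -0.05 to 0.02 for Ntrk3 and -0.09 to 0.01 for Sorcs2. The cause was not tested.

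Between the wild types, 5 genes passed and 3 did with length and GC trends removed, where Bdnf was -0.37, Ntrk2 -0.19 and Ntrk3 -0.41. FPKM as deposited moved the median of all genes there by -0.13. Mice could not be paired by number, because each mouse number occurs once and the groups share none. The term for the library set, which is no replicate number, left 0 of the 6 genes past the threshold in the knockout comparisons. With 3 mice a group and unknown depth, small changes could not be detected.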
